A study of Mus musculus with 11 samples.

Results

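A set of genes that mark B cells and antigen-presenting cells was followed in RNA-seq of thymocytes, as a sign of cells other than developing T cells in the suspension. The set is 9 of the 54418 genes in the count table, *Cd79a*, *Cd79b*, *Ms4a1*, *Pax5*, *Ebf1* and *Ighm* for B cells, and *Cd74*, *H2-Aa* and *H2-Ab1* for MHC class II. The rule lists them by name and uses no measured value, and all 9 were found in the table through their GENCODE names. The thymus of 8 to 12 week old mice was mashed into a single-cell suspension, and RNA came from 5000000 cells of each mouse, with no sort for a cell type described in the sources used here. The groups were 4 wt mice, 4 *Zmat3-/-* mice and 3 mice that lack *Puma*, *p21* and *Zmat3* (*Puma-/- p21-/- Zmat3-/-*, called TKO). The mice were on a C57BL/6-WEHI background. The deletions are in the germ line and so are carried by every cell type of the thymus. *Zmat3* loss is shared by the *Zmat3-/-* and the TKO mice. ZMAT3 is an RNA-binding protein, PUMA (gene *Bbc3*) promotes apoptosis and p21 (gene *Cdkn1a*) arrests the cell cycle, and all are encoded by targets of TRP53. The comparisons asked how each knockout differed from wt and how TKO differed from *Zmat3-/-*, and each labelled sample is one mouse.

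The thymus holds a small resident population of B cells besides its thymocytes. A B cell reads antigen through surface immunoglobulin, whose mu heavy chain comes from *Ighm* and whose signal is passed on by the CD79A and CD79B chains, while EBF1 and PAX5 are the transcription factors that set and keep the B cell programme. MHC class II molecules present peptides to CD4+ T cells and are made in the thymus by epithelial cells, dendritic cells, macrophages and B cells. Their alpha and beta chains pair in the endoplasmic reticulum with the invariant chain, CD74, and the coactivator CIITA switches these genes on together. Mouse T cells do not in general make class II, so that class II RNA in a thymocyte suspension is commonly read as RNA of other cells. In bulk RNA fewer cells of a type and less RNA per cell cannot be told apart.

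The libraries held between 17669715 and 80207003 counts. Levels are given as CPM, the counts of a gene in a library scaled to 1000000 counts, with TMM factors over all 11 mice. The targeted gene *Zmat3* lay between 9.88 and 26.8 CPM in wt, between 5.34 and 6.85 CPM in *Zmat3-/-* and between 7.78 and 8.25 CPM in TKO mice. Within wt it was at 9.88 and 12.2 CPM in mice 1 and 2 and at 26.8 CPM in both mice 3 and 4. *Bbc3* lay between 12.9 and 15.2 CPM in TKO and between 16.8 and 20.1 CPM in wt mice, and *Cdkn1a* between 2.49 and 3.52 CPM in TKO and between 3.53 and 10.4 CPM in wt mice. Wt mice 1 and 2 stood apart. Their median correlation with the other mice across genes was 0.921 and 0.945, against 0.959 to 0.981 for the other 9 mice. They also differed by transcript length. Spearman's correlation between a gene's exon length and its deviation from the mean of the 11 mice, across 13524 genes, was -0.48 in wt mouse 1 and -0.50 in wt mouse 2, and lay between 0.04 and 0.34 in the other 9. Genes are not independent replicates, so these correlations describe the libraries only. The comparisons of the 9 genes with wt, and the tallies of the B cell, class II and T cell lists, are given with and without these 2 mice.

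The 9 genes covered a wide range of levels. Per kilobase of exon, the mean over the 11 mice was 258.7 CPM for *Ighm* (SD 56.1) and 223.8 CPM for *Cd74* (SD 64.9). It was 60.1 CPM per kb for *H2-Ab1* (SD 17.9) and 44.6 CPM per kb for *H2-Aa* (SD 13.2). The signalling chains followed with 17.4 CPM per kb for *Cd79b* (SD 5.09) and 9.28 CPM per kb for *Cd79a* (SD 4.26). The lowest levels were those of *Ms4a1* at 1.65 CPM per kb (SD 0.332), *Pax5* at 0.864 CPM per kb (SD 0.172) and *Ebf1* at 0.199 CPM per kb (SD 0.0594). *Ighm* lay above *Cd74* in 9 of 11 mice, and their means differed by less than 1 SD. The order of every other pair of neighbours was the same in 11 of 11 mice, although the means of *H2-Ab1* and *H2-Aa* also differed by less than the SD of *H2-Ab1*. Exon length here is the union of all annotated exons, which lowers the level of a gene with long rare isoforms. The counts behind these levels ran from 23 to 112 for *Ebf1* and from 8048 to 36013 for *Ighm*, so that *Ebf1* carries the largest counting error. Genes that overlap the span of a member in the annotation had a mean level of at most 0.127 CPM.

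**Figure D1:**
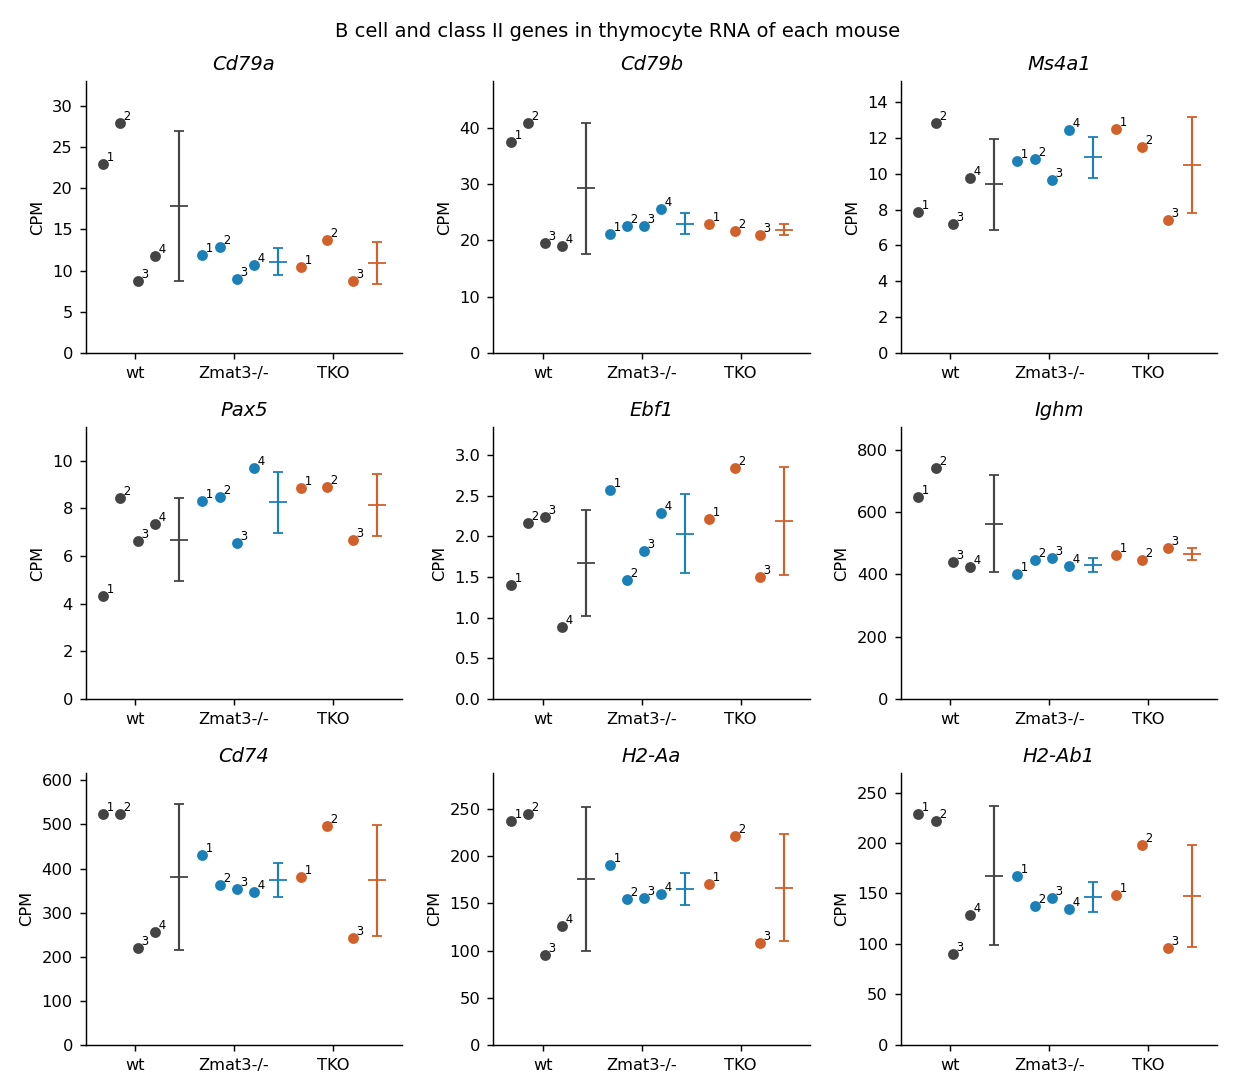
Level of each of the 9 genes in CPM (linear axis from 0, its own scale in each panel) in every wt, *Zmat3-/-* and TKO mouse. Numbers are the labels' replicate numbers, and the bar beside each group is mean and SD (n = 4, 4 and 3). In 6 panels wt mice 1 and 2 lie above the other 9 mice, and in the panels of *Ms4a1*, *Pax5* and *Ebf1* they do not.

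*Cd79a* (chromosome 7, 24897381 to 24902197, plus strand, GRCm38) encodes the Ig-alpha chain of the B cell receptor. Its level was 22.9, 27.9, 8.79 and 11.8 CPM in wt mice 1 to 4, 11.8, 12.8, 9.04 and 10.8 CPM in *Zmat3-/-* mice 1 to 4, and 10.4, 13.7 and 8.76 CPM in TKO mice 1 to 3. Wt mice 1 and 2 were higher than all other mice, while wt mice 3 and 4 lay within the range of the knockouts. *Cd79b* (chromosome 11, 106311341 to 106314762, minus strand) encodes its partner chain, Ig-beta. It was at 37.4, 40.9, 19.5 and 19.1 CPM in the wt mice, at 21.1, 22.5, 22.6 and 25.5 CPM in the *Zmat3-/-* mice and at 23.0, 21.7 and 21.004 CPM in the TKO mice. Again wt mice 1 and 2 were above all other mice, and wt mice 3 and 4 were the lowest of the 11. The CPM ratio of *Cd79b* to *Cd79a* ran from 1.46 in wt mouse 2 to 2.50 in *Zmat3-/-* mouse 3, although the products of these genes work as a dimer.

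*Ms4a1* (chromosome 19, 11249675 to 11266241, minus strand) encodes CD20, a surface protein of mature B cells. It was at 7.84, 12.8, 7.18 and 9.77 CPM in wt, 10.7, 10.8, 9.67 and 12.4 CPM in *Zmat3-/-* and 12.5, 11.5 and 7.43 CPM in TKO mice. *Pax5* (chromosome 4, 44524757 to 44710487, minus strand) was at 4.31, 8.44, 6.64 and 7.35 CPM in wt, 8.30, 8.46, 6.56 and 9.67 CPM in *Zmat3-/-* and 8.86, 8.89 and 6.65 CPM in TKO mice. *Ebf1* (chromosome 11, 44617317 to 45008091, plus strand) was at 1.40, 2.16, 2.24 and 0.885 CPM in wt, 2.57, 1.46, 1.82 and 2.28 CPM in *Zmat3-/-* and 2.21, 2.83 and 1.51 CPM in TKO mice. For none of these 3 genes were wt mice 1 and 2 both high, and wt mouse 1 had the lowest *Pax5* level of all 11 mice. The CPM ratio of *Ms4a1* to *Pax5* stayed between 1.08 and 1.82, whereas that of *Cd79a* to *Pax5* ran from 1.11 in *Zmat3-/-* mouse 4 to 5.31 in wt mouse 1.

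*Ighm* (chromosome 12, 113418558 to 113422730, minus strand) encodes the constant region of the mu heavy chain, and sterile transcripts of this region are also known from T lineage cells. Its level was 646.6, 739.8, 440.4 and 422.7 CPM in wt, 400.0, 444.6, 451.1 and 427.7 CPM in *Zmat3-/-* and 462.4, 447.1 and 484.0 CPM in TKO mice. Outside wt mice 1 and 2 it was the steadiest of the 9 genes relative to its level, with an SD of 22.8 CPM around 430.9 CPM in *Zmat3-/-* (n = 4) and of 18.5 CPM around 464.5 CPM in TKO mice (n = 3). The CPM ratio of *Ighm* to *Cd79a* ran from 26.5 in wt mouse 2 to 55.2 in TKO mouse 3. *Ighd* is spliced by mature B cells from the same primary transcript, and the CPM ratio of *Ighm* to *Ighd*, not corrected for length, ran from 38.6 to 111.7. The 113 annotated heavy chain variable segments together reached 15.1 to 48.6 CPM, lowest in wt mouse 1 and highest in TKO mouse 1. Reads on such segments can be split between near-identical copies, so only their sum is given.

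The class II genes moved together from mouse to mouse. *Cd74* (chromosome 18, 60803848 to 60812652, plus strand), the invariant chain, was at 522.5, 523.2, 218.9 and 256.7 CPM in wt, 430.5, 361.8, 353.7 and 346.9 CPM in *Zmat3-/-* and 380.9, 495.6 and 242.5 CPM in TKO mice. *H2-Aa* (chromosome 17, 34282744 to 34287823, minus strand), the alpha chain of the I-A molecule, was at 237.4, 244.4, 95.4 and 125.7 CPM in wt, 190.9, 155.0, 156.1 and 159.7 CPM in *Zmat3-/-* and 170.3, 221.1 and 107.9 CPM in TKO mice. *H2-Ab1* (chromosome 17, 34257689 to 34269419, plus strand), its beta chain, was at 228.6, 222.2, 90.4 and 128.7 CPM in wt, 167.7, 137.8, 145.8 and 134.5 CPM in *Zmat3-/-* and 148.1, 197.7 and 96.3 CPM in TKO mice. For all 3 genes wt mice 1 and 2 were highest and wt mouse 3, TKO mouse 3 and wt mouse 4 lowest, so that the wt range enclosed that of both knockouts. The 4 *Zmat3-/-* mice lay close together, with an SD of 38.7 CPM around 373.2 CPM for *Cd74*, while wt (SD 165.3 CPM around 380.3 CPM) and TKO mice (SD 126.7 CPM around 373.0 CPM) spread more widely at nearly the same mean.

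Within a mouse the class II genes kept nearly fixed proportions. Over the 11 mice the CPM ratio of *H2-Aa* to *H2-Ab1* lay between 0.98 and 1.19 with a coefficient of variation of 5.36%, and that of *Cd74* to *H2-Aa* between 2.04 and 2.33 with a coefficient of variation of 3.60%. The level of each of these genes alone varied by 29.0% to 29.7%. *H2-Eb1* (chromosome 17, 34305867 to 34316674, plus strand), the beta chain of the second class II molecule I-E, kept to the same pattern at 88.3 to 217.4 CPM, and its ratio to *H2-Ab1* lay between 0.88 and 1.05. Its alpha chain partner is annotated as the polymorphic pseudogene *H2-Ea-ps* and had 0 counts in 11 of 11 mice. At 3 counts, the level that a count of 0 still allows lay between 0.0403 and 0.167 CPM, counting error alone considered. Mice of the C57BL/6 background are known to lack a functional I-E alpha chain. *H2-Ab1*, *H2-Aa* and *H2-Eb1* lie 5.16, 5.18 and 5.21 Mb beyond the end of *Cdkn1a* on the same chromosome, which is one of the 3 genes deleted in TKO mice.

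Class II promoters share a set of short elements before the start site, in order the X box, whose parts bind the RFX complex and CREB, and the Y box, which binds NF-Y, and CIITA docks on the proteins bound there. The sequences are shown because the genes behind them kept step across the mice. Promoter sequences from RefSeq (GRCm38.p6) matched 4 of the 9 genes, *H2-Aa* among them, and *H2-Eb1*. Shown are the 150 bases before the start site of each, 5′ to 3′ on the strand of the gene, at chr17:34287824-34287973 (minus strand) for *H2-Aa* and chr17:34305717-34305866 (plus strand) for *H2-Eb1*. Capitals mark CTGATTGG, a Y box form, in both, TGACGTCA, an X2 box form, in *H2-Aa*, and TAGCAAC, an X1 box core, in *H2-Eb1*.
H2-Aa: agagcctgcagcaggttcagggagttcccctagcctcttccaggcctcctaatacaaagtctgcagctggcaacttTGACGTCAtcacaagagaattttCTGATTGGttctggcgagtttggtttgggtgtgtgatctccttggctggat
H2-Eb1: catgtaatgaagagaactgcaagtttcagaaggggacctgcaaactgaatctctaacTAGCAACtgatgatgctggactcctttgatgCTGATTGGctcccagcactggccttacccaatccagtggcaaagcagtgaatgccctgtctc
The Y box word began 51 bases before the start of *H2-Aa* and 62 bases before that of *H2-Eb1*. Searched were the promoters of the 4 matched members and of 19 further genes of the class II pathway, matched from 25 listed names that include aliases. At least one of the 3 words was found in those of 5 genes. Besides both genes shown, the Y box word was found 46 bases before the start of *H2-Oa* and 103 bases before that of *H2-Eb2*, and the X1 word 89 bases before the start of *H2-Ob* and 11 bases before that of *H2-Eb2*, where it lies after the Y box word and so not in the order named. Of 32851 RefSeq promoters, 3.83% held CTGATTGG on either strand in the 250 bases before the start site, 1.55% held TGACGTCA and 3.16% held TAGCAAC. These are matches of letters, and no binding was measured.

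None of the 9 genes was called differentially expressed between any of the genotypes. A call needed an adjusted p under 0.05 and an absolute log2 fold change (log2FC) over 1.5 in edgeR's quasi-likelihood test. All 9 passed the filter on low counts in all 3 comparisons. Among all genes tested, 0.319% were called between *Zmat3-/-* and wt, 0.241% between TKO and wt and 0.122% between TKO and *Zmat3-/-*. At an unadjusted p under 0.05 it was 0 of 9 in each comparison, against 16.1%, 10.3% and 4.5% of all genes, and at an adjusted p under 0.05 with any fold change again 0 of 9, against 0.763%, 0.294% and 0.221%. The DESeq2 Wald test called 0 of 9 in each, against 0.912%, 0.777% and 0.145% of all genes. In all 3 comparisons the ranges of the compared groups overlapped for all 9 genes. Ranges that did not overlap were seen for 7.31% (higher) and 6.75% (lower) of all genes between *Zmat3-/-* and wt, for 6.95% and 5.15% between TKO and wt, and for 3.49% and 1.43% between TKO and *Zmat3-/-*.

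Between *Zmat3-/-* and wt mice the largest differences were those of *Cd79a* and *Ighm*. The log2FC of *Cd79a* was -0.67 (95% confidence interval -1.44 to 0.10, adjusted p = 0.368, edgeR), with means of 11.1 CPM in *Zmat3-/-* and 17.9 CPM in wt. *Ighm* followed with -0.37 (-0.79 to 0.05, adjusted p = 0.360), and *Cd79b* with -0.34 (-0.91 to 0.24). The other B cell genes pointed the other way, with a log2FC of 0.22 for *Ms4a1* (-0.22 to 0.66), 0.31 for *Pax5* (-0.20 to 0.82) and 0.29 for *Ebf1* (-0.47 to 1.06). The class II genes lay near 0, at -0.01 for *Cd74* (-0.66 to 0.64), -0.07 for *H2-Aa* (-0.72 to 0.58) and -0.18 for *H2-Ab1* (-0.80 to 0.44). Of the 9 genes 3 had a higher and 6 a lower mean log2 level in *Zmat3-/-*, with a median log2FC of -0.07, against -0.03 over all 13494 genes tested.

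The comparison of TKO with wt mice uses the same wt mice as the one before. The log2FC was -0.73 for *Cd79a* (-1.70 to 0.24, adjusted p = 0.578, edgeR), -0.45 for *Cd79b* (-1.14 to 0.25) and -0.31 for *Ighm* (-0.83 to 0.21). It was 0.13 for *Ms4a1* (-0.55 to 0.82), 0.25 for *Pax5* (-0.40 to 0.90) and 0.36 for *Ebf1* (-0.63 to 1.34). For class II it was -0.03 for *Cd74* (-0.97 to 0.90), -0.09 for *H2-Aa* (-1.02 to 0.85) and -0.19 for *H2-Ab1* (-1.11 to 0.72). The median was -0.09, against -0.04 over all 13260 genes.

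Between TKO and *Zmat3-/-* mice, which differ by the loss of *Puma* and *p21*, the log2FC of the 9 genes lay between -0.11 (*Cd79b*) and 0.06 (*Ighm*), with adjusted p from 0.983 to 1.00. The intervals were narrowest for *Ighm* (-0.10 to 0.23) and *Cd79b* (-0.35 to 0.13) and widest for *Ebf1* (-0.68 to 0.76). For *Cd79a* the interval was -0.52 to 0.38 and for *Cd74* -0.54 to 0.50. A difference beyond the 1.5 threshold was therefore outside the interval of all 9 genes in this comparison. In the comparisons with wt the interval of *Cd79a* in TKO mice reached -1.70.

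**Figure D2:**
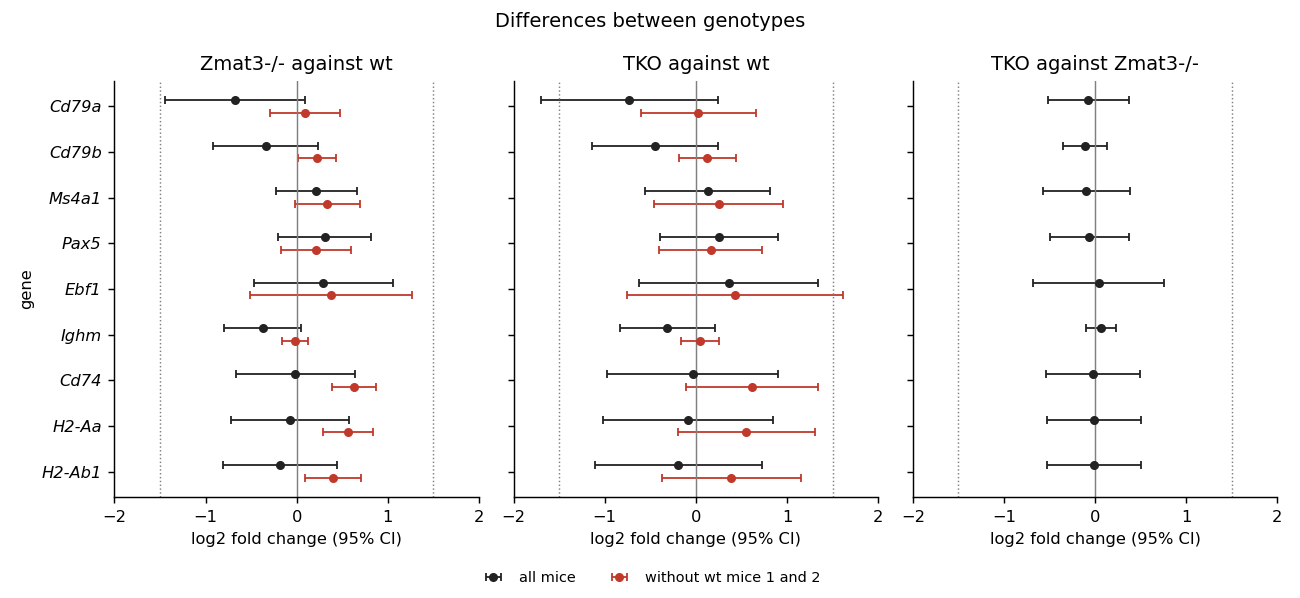
Log2 fold change (edgeR) of each of the 9 genes with its 95% confidence interval in the 3 comparisons, from all mice (black) and, for comparisons with wt, without wt mice 1 and 2 (red). Dotted lines mark the threshold of 1.5 in either direction, and every black interval includes 0. Without the 2 mice the class II genes move from about 0 to between 0.39 and 0.63.

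The comparisons with wt depended on wt mice 1 and 2. Without them the log2FC of *Cd79a* was 0.09 in *Zmat3-/-* (adjusted p = 0.722, edgeR) and 0.03 in TKO mice (adjusted p = 0.958), and that of *Ighm* was -0.02 and 0.05. For class II the means of the knockouts were then above those of wt mice 3 and 4. In *Zmat3-/-* mice the log2FC was 0.63 for *Cd74* (SE 0.107, adjusted p = 0.00206), 0.56 for *H2-Aa* (SE 0.124, adjusted p = 0.00745) and 0.40 for *H2-Ab1* (SE 0.138, adjusted p = 0.0487). None reached the fold threshold. Adjusted p was under 0.05 for 3 of the 9 genes in that fit, and for 33% of all genes, so the share of the 9 was that of the background. In TKO mice the log2FC was 0.62, 0.55 and 0.39, with adjusted p of 0.232, 0.291 and 0.462, and 0 of the 9 genes had an adjusted p under 0.05, against 8.15% of all genes. Without wt mice 3 and 4 instead, the class II genes had a log2FC of -0.47 (*Cd74*), -0.53 (*H2-Aa*) and -0.61 (*H2-Ab1*) in *Zmat3-/-*, and adjusted p was under 0.05 for 6 of the 9 genes in *Zmat3-/-*, against 56.1% of all genes, and for 3 of the 9 in TKO mice, against 43.6%. The sign of the class II difference was thus set by which pair of wt mice was kept.

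Transcript length divided the 9 genes in the same way as wt mice 1 and 2 did. The 6 genes with under 4 kb of exon (*Cd79a*, *Cd79b*, *Ighm*, *Cd74*, *H2-Aa* and *H2-Ab1*) all had their highest levels in these mice, while this held for 0 of the 3 genes with 6 kb or more (*Ms4a1*, *Pax5* and *Ebf1*). Over all genes, both mice lay above the other 9 for 43.1% of genes under 4 kb, for 6.41% of genes of 6 kb or more and for 26.5% of all genes. The cuts lie in a gap of the 9 genes, between *H2-Aa* at 3.798 kb and *Ms4a1* at 6.187 kb. The class II genes moved together, so the 6 genes are not 6 separate observations. *Cd79a*, with 1.457 kb of exon, deviated from its mean over the 11 mice by 0.86 and 1.15 on the log2 scale in wt mice 1 and 2, and *Pax5*, with 8.853 kb, by -0.79 and 0.17. The median deviation of the 1367 genes under 1500 bp was 0.64 and 0.44 in the same mice. *Xist*, which marks a female mouse, was at 504.7 and 620.0 CPM in wt mice 1 and 2 and at 1.70 and 2.54 CPM in wt mice 3 and 4, so that within wt the library difference and this one cannot be told apart. *Zmat3-/-* mice 1 and 2 and TKO mouse 1 also had high *Xist* levels, from 1088.3 to 1484.6 CPM, and their correlations with length lay between 0.04 and 0.17. The part of transcript length in the levels of the 9 genes was not tested.

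**Figure D3:**
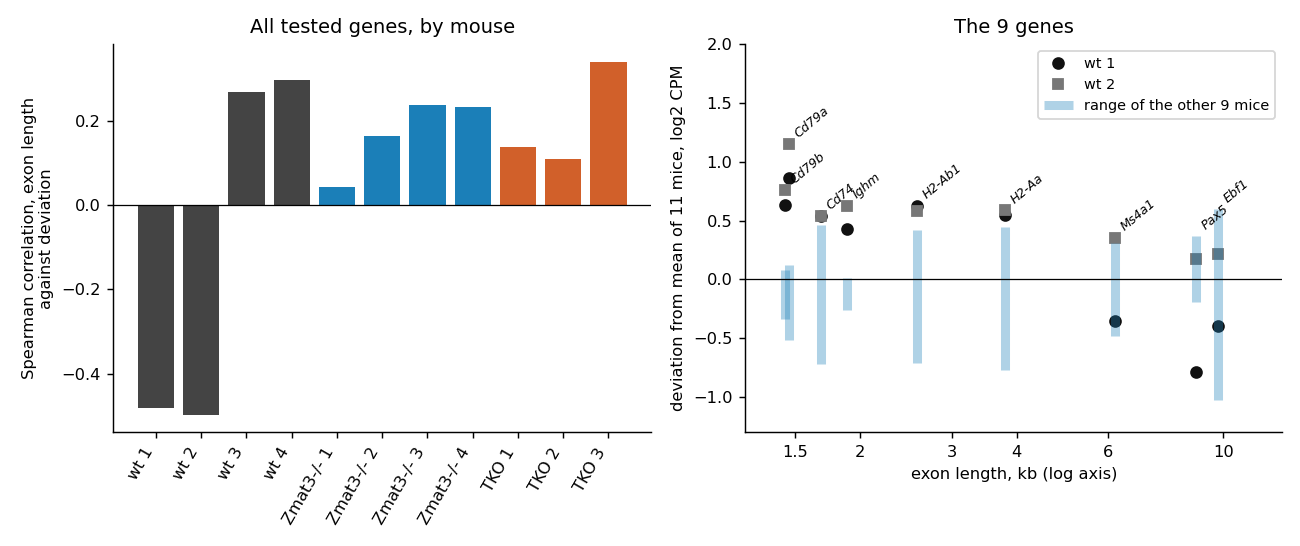
Left, Spearman's correlation between exon length and a gene's deviation from its mean log2 CPM over the 11 mice, across 13524 genes, for each mouse. Right, the deviation of the 9 genes in wt mouse 1 (circles) and wt mouse 2 (squares) against exon length in kb on a log axis, with the range of the other 9 mice as a bar. The correlation is negative in wt mice 1 and 2 alone (-0.48 and -0.50), and both mice lie above the bar only for the 6 genes shorter than 4 kb.

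Other B cell genes were not called either. Of the 25 listed, 24 were tested in each comparison and 0 were called. Between *Zmat3-/-* and wt 5 had a positive and 19 a negative log2FC, with a median of -0.27, and 4 had an unadjusted p under 0.05 (16.1% of all genes did). *Siglecg*, an inhibitory receptor of B cells, was at 5.97 to 9.08 CPM in wt, 2.85 to 4.62 CPM in *Zmat3-/-* and 3.05 to 4.94 CPM in TKO mice, so that both knockouts lay below every wt mouse. Its log2FC was -0.90 in *Zmat3-/-* (SE 0.218, adjusted p = 0.106, edgeR) and -0.89 in TKO mice (SE 0.290, adjusted p = 0.399). Over the alternatives the adjusted p in *Zmat3-/-* ran from 0.00376 (DESeq2) to 0.282, and it was 0.0124 without wt mice 1 and 2, at a change below the fold threshold in each. *Cd37*, a tetraspanin of B and other lymphoid cells, lay at 137.2 to 205.3 CPM in wt, 111.2 to 122.9 CPM in *Zmat3-/-* and 99.4 to 122.0 CPM in TKO mice. *Bank1*, a scaffold of B cell receptor signalling, stood the other way, at 4.07 to 7.27 CPM in wt and 8.05 to 12.8 CPM in *Zmat3-/-* mice (log2FC 0.67, adjusted p = 0.215), while the TKO mice, at 9.59, 8.72 and 4.77 CPM, overlapped with wt. Between TKO and wt 4 had a positive and 20 a negative log2FC (median -0.27), and between TKO and *Zmat3-/-* 9 and 15 (median -0.04). Without wt mice 1 and 2 it was 15 and 9 in *Zmat3-/-* (median 0.09) and 12 and 12 in TKO mice (median 0.00064). The direction of the list against wt thus went with the same 2 mice.

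Of the immunoglobulin constant genes *Igkc*, *Igha* and *Ighg2c* had higher levels in every TKO than in every *Zmat3-/-* mouse, without being called in the edgeR fit. *Igkc*, the kappa light chain, was at 47.0, 38.1, 50.6 and 45.0 CPM in *Zmat3-/-* and 70.3, 60.4 and 55.8 CPM in TKO mice (log2FC 0.42, adjusted p = 0.846, edgeR). *Igha*, the constant region of IgA, was at 23.1, 32.7, 23.4 and 24.9 CPM in *Zmat3-/-* and 52.5, 33.2 and 49.1 CPM in TKO mice (log2FC 0.74, adjusted p = 0.210). *Ighg2c*, that of IgG2c, was at 6.95, 3.51, 3.38 and 4.36 CPM against 22.3, 8.94 and 7.51 CPM (log2FC 1.48, adjusted p = 0.582), and without TKO mouse 1 its log2FC was 0.77. With no filter on low counts the adjusted p was 0.000337 for *Igha* and 0.00131 for *Ighg2c*, both below the fold threshold, and in DESeq2 it was 0.00136 and 0.445. Of all genes, 3.49% showed this pattern. The wt mice spanned 40.6 to 133.3 CPM for *Igkc*, 22.4 to 45.4 CPM for *Igha* and 3.94 to 12.4 CPM for *Ighg2c*. For each of these genes wt thus overlapped with TKO. Other constant genes overlapped between *Zmat3-/-* and TKO mice, with *Ighm* at 400.0 to 451.1 CPM in *Zmat3-/-* and 447.1 to 484.0 CPM in TKO, *Ighg2b* at 16.0 to 30.9 and 26.3 to 41.2 CPM, and *Ighd* at 4.04 to 10.05 and 5.62 to 10.24 CPM. Of the 10 tested genes of class-switched B and plasma cells, 2 had groups that did not overlap in this comparison and 0 were called. *Vpreb1*, part of the surrogate light chain of B cell precursors, was at 2.19 to 2.73 CPM in wt, 1.16 to 1.41 CPM in *Zmat3-/-* and 1.53 to 1.94 CPM in TKO mice, so that both knockouts lay below every wt mouse. Its log2FC was -0.95 in *Zmat3-/-* (SE 0.188, adjusted p = 0.0682, edgeR) and -0.51 in TKO mice (SE 0.269, adjusted p = 0.549). In *Zmat3-/-* the adjusted p was 0.000373 in DESeq2, 0.0429 in the joint fit, 0.045 with a filter at 50 counts and 0.0393 without wt mice 1 and 2, and it was 0.247 with no filter and 0.224 with a replicate block. In none of these fits did the change reach the fold threshold. *Vpreb2* and *Igll1* stayed under 1 CPM in every mouse. Of the 6 tested genes of the B cell precursor list 3 had a positive and 3 a negative log2FC in *Zmat3-/-* against wt (median -0.0027). In TKO against wt it was 2 and 4 (median -0.20). Without wt mice 1 and 2 it was 2 and 4 in *Zmat3-/-* and 1 and 5 in TKO mice, and 0 were called in any of these fits.

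Further genes of the class II pathway were not called either. Of 22 further genes of the pathway, 21 were tested and 0 called in any comparison. In *Zmat3-/-* against wt 8 had a positive and 13 a negative log2FC (median -0.06), in TKO against wt 9 and 12 (median -0.08) and in TKO against *Zmat3-/-* 8 and 13 (median -0.03). Between *Zmat3-/-* and wt 3 of the 21 had an unadjusted p under 0.05 (16.1% of all genes did). The groups did not overlap for 3 of the 21, all higher (7.31% of all genes), and between TKO and wt for 0. Without wt mice 1 and 2 it was 16 and 5 in *Zmat3-/-* (median 0.21) and 16 and 5 in TKO mice (median 0.26) against wt, and adjusted p was under 0.05 for 10 of the 21 in *Zmat3-/-*, 9 of them higher, against 33% of all genes, and for 1 of the 21 in TKO mice, against 8.15%. *March8*, a membrane ubiquitin ligase that can lower surface proteins, was at 4.53, 5.61, 4.52 and 4.46 CPM in wt, 10.4, 8.66, 8.71 and 7.39 CPM in *Zmat3-/-* and 6.01, 10.1 and 4.09 CPM in TKO mice. Its log2FC between *Zmat3-/-* and wt was 0.89 (SE 0.156) with an adjusted p of 0.0481 (edgeR), below the fold threshold, and with any one mouse left out the adjusted p lay between 0.0744 and 0.182. Over the other alternatives it ran from 9.68e-06 (DESeq2) to 0.192 (replicate block), and it was 0.0031 without wt mice 1 and 2. *March1*, the ligase that removes class II from the surface, was at 3.83 to 5.84 CPM in wt and 6.81 to 9.70 CPM in *Zmat3-/-* mice (log2FC 0.67, adjusted p = 0.148), and at 9.84, 8.50 and 4.41 CPM in TKO mice. *H2-Eb2*, a further beta chain gene, was at 3.53 to 6.08 CPM in wt and 6.95 to 9.02 CPM in *Zmat3-/-* mice (log2FC 0.60, adjusted p = 0.183), and at 7.93, 8.89 and 5.05 CPM in TKO mice. For *March1* and *H2-Eb2* TKO mouse 3 lay within the range of wt. *Ciita*, the class II coactivator, was at 9.09, 14.5, 13.2 and 17.1 CPM in wt, 20.9, 18.0, 15.1 and 16.8 CPM in *Zmat3-/-* and 18.2, 23.7 and 14.8 CPM in TKO mice, so that wt mice 1 and 2, highest for class II, were not highest for *Ciita*. *Ciita* has 9.535 kb of exon and so is among the long genes. *Creb1* and *Ctsl*, with *H2-Eb1* the genes of the list with the highest mean CPM, had ranges of 160.3 to 334.7 CPM and 117.0 to 214.3 CPM over all mice. *Creb1* serves many promoters besides those of class II, and *Ctsl*, a cathepsin, degrades the invariant chain in thymic epithelium.

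RNA of genes listed for other cells of the thymus was found in every library, although the sums do not show which cells carried it. The 15 T cell and thymocyte genes summed to 16039 to 22379 CPM, against 889.5 to 1821.9 CPM for the 9 genes, both in CPM not corrected for length, and every one of the 15 was above 1 CPM in at least 1 mouse. The summed level of *Cd74*, *H2-Aa* and *H2-Ab1* was 404.7 to 989.9 CPM in wt, 641.0 to 789.1 CPM in *Zmat3-/-* and 446.7 to 914.4 CPM in TKO mice. The 13 macrophage and monocyte genes summed to 221.1 to 437.3 CPM in wt, 331.2 to 446.9 CPM in *Zmat3-/-* and 208.2 to 478.3 CPM in TKO mice. The 13 dendritic cell genes summed to 129.6 to 336.2, 190.7 to 308.4 and 160.4 to 257.5 CPM in the same order, and the 13 thymic epithelial genes to 155.8 to 312.1, 210.6 to 265.1 and 163.6 to 243.2 CPM. Wt mouse 3, wt mouse 4 and TKO mouse 3 had the lowest sums of class II and of each of these 3 lists. These libraries also stood at one end of the 11 in other measures. Their correlations between exon length and deviation were the highest, at 0.27, 0.30 and 0.34, and mitochondrial genes took the smallest share of their counts, at 4.45%, 4.25% and 3.86%. The mitochondrial share reached at most 6.31% in the wt mice and was at least 6.54% and up to 14.6% in the *Zmat3-/-* mice, so that these groups did not overlap, and in the TKO mice it reached 9.29%. Without TKO mouse 3 the log2FC between TKO and *Zmat3-/-* was 0.27 for *Cd74*, 0.28 for *H2-Aa* and 0.27 for *H2-Ab1*, with adjusted p from 0.791 to 0.800 (edgeR). For the 25 further B cell genes the lowest sum was that of *Zmat3-/-* mouse 3. The part of these cells, of transcript length and of the mitochondrial share in the class II levels was not tested.

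**Figure D4:**
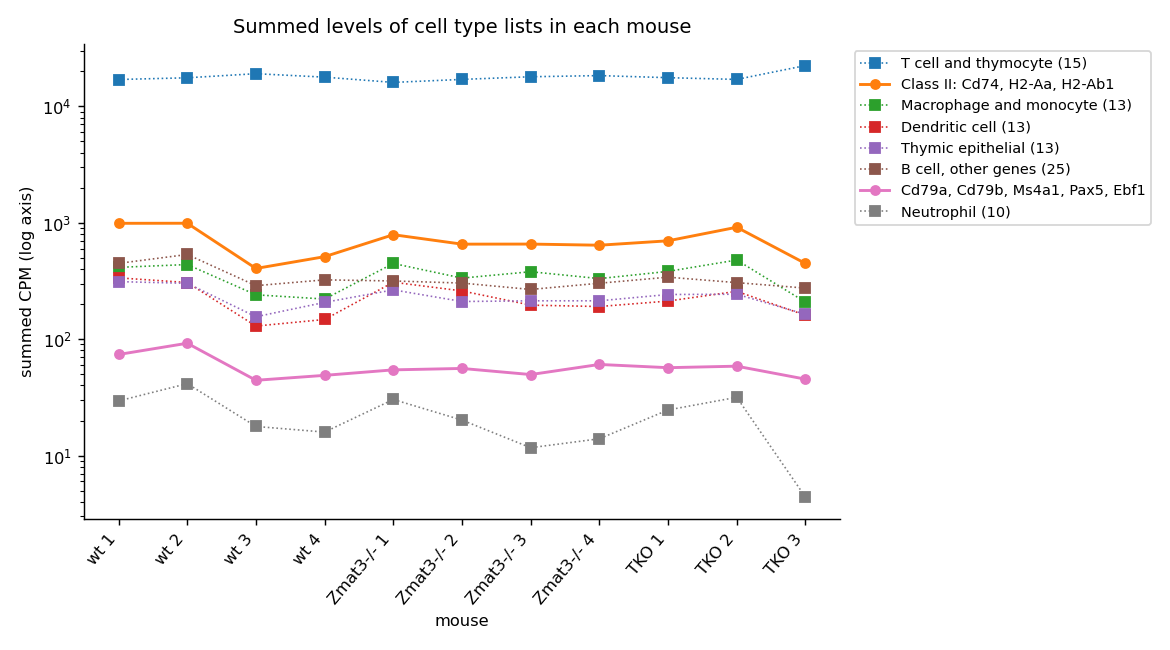
Summed CPM (log axis) in each of the 11 mice for lists of cell type genes, with the number of genes in parentheses. Solid lines are sums of the genes described here, dotted lines are other lists. Class II, macrophage, dendritic cell and epithelial sums are low together in wt mouse 3, wt mouse 4 and TKO mouse 3, while T cell genes lie far above in every mouse.

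Among single genes of these lists the groups of wt and *Zmat3-/-* mice did not overlap for *Adgre1* of macrophages, *Cd209a* of dendritic cells and the collagen gene *Col3a1*, with 0 called in each list. *Adgre1* had a log2FC of 0.70 (adjusted p = 0.115, edgeR), *Cd209a* of -0.85 (adjusted p = 0.272) and *Col3a1* of 1.30 (adjusted p = 0.103). In DESeq2 the adjusted p was 0.00586 for *Adgre1*, 0.154 for *Cd209a* and 0.00181 for *Col3a1*, each below the fold threshold. In the fit of all mice the log2FC against wt was positive for 9 and negative for 4 of the macrophage and monocyte genes in *Zmat3-/-* (median 0.19), 6 and 7 of the dendritic cell genes (median -0.02), 5 and 7 of the thymic epithelial genes (median -0.17) and 6 and 1 of the fibroblast and endothelial genes (median 0.78). Without wt mice 1 and 2 part of the markers of other cells were higher in *Zmat3-/-*, as the class II genes were, and without wt mice 3 and 4 most epithelial genes were lower, as class II was. Adjusted p was then under 0.05 for 9 of the 13 macrophage and monocyte genes, all 9 higher (median log2FC 0.77 over the 13), for 6 of 12 thymic epithelial genes, 5 of them higher, for 4 of 8 fibroblast and endothelial genes and for 3 of 13 dendritic cell genes, all higher, against 33% of all genes. Of the dendritic cell list 2 of 13 genes were called in that fit, *Fscn1* (2.17) and *Ccl22* (1.67). Of the fibroblast and endothelial list 2 of 8 were called, *Col3a1* (1.77) and *Col1a2* (1.62), against 3.13% of all genes. In TKO mice without wt mice 1 and 2 adjusted p was under 0.05 for 1 of 12 macrophage and monocyte genes and for 0 of the genes of the other 3 lists, against 8.15%. Without wt mice 3 and 4 instead, adjusted p was under 0.05 in *Zmat3-/-* for 9 of 12 thymic epithelial genes, 8 of them lower, for 2 of 13 dendritic cell genes, both lower, for 5 of 13 macrophage and monocyte genes, 3 of them higher, and for 2 of 8 fibroblast and endothelial genes, both higher, against 56.1% of all genes. Of the epithelial list 1 of 12 genes was called in that fit, *Krt14* (-1.56), against 5.16% of all genes. In TKO mice *Krt14* was also called, 1 of 12 against 5.03%. Of the 15 T cell genes 5 had a positive and 10 a negative log2FC in *Zmat3-/-* against wt, from -0.47 to 0.30 (median -0.24), and 8 and 7 without wt mice 1 and 2 (median 0.0033). Adjusted p was under 0.05 for 4 of the 15 without wt mice 1 and 2, 3 of them lower, against 33% of all genes. Without wt mice 3 and 4 instead it was 12 of the 15, 9 of them lower, against 56.1%, with log2FC from -0.87 to 1.19. In the fit of all mice 3 of the 15 had an unadjusted p under 0.05 (16.1% of all genes did). For 4 of the 15 the groups did not overlap, all lower (6.75% of all genes). The 3 with an unadjusted p under 0.05 were *Cd3e*, *Rag2* and *Thy1* at -0.47, -0.39 and -0.38. Their adjusted p ran from 0.0966 to 0.289 (in DESeq2 9.82e-05, 0.0296 and 0.111). Without wt mice 1 and 2 they were at -0.39, -0.42 and -0.13. *H2-Ea-ps* was the one listed gene with 0 counts in all mice. *Elane*, *Mpo* and *Ly6g* of neutrophils, *Cldn3* of epithelium, *Klf1* of erythroid cells and *Vpreb3* of B cells stayed under 1 CPM in every mouse. The 10 neutrophil genes summed to 4.4 to 41.5 CPM, and the erythroid genes to 880.1 to 8557.8 CPM, highest in wt mouse 3. The erythroid sum did not follow class II, which was lowest in that mouse. Of 5 tested erythroid genes 0 were called in the fit of all mice. Without wt mice 3 and 4, 3 of 5 were called in *Zmat3-/-* and 5 of 5 in TKO mice, all higher than in wt. The shares of all genes called in these fits were 5.16% and 5.03%. Without wt mice 1 and 2 instead, 0 were called, and all tested erythroid genes were lower, 6 in *Zmat3-/-* and 5 in TKO mice. Of the neutrophil list 2 of 8 genes were called in *Zmat3-/-* without wt mice 3 and 4, both lower, and 0 of 7 in TKO mice.

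The genes with the most similar course over the 11 mice were not the same for the B cell and the class II genes. Likeness was Pearson's r of log2 CPM with the mean centred log2 CPM of the set, over 13515 genes. For the class II genes the closest were *H2-Eb1* (r = 0.99), *Mt1* (0.99), a metallothionein, *Ctss* (0.98), the cathepsin that trims the invariant chain in antigen-presenting cells, *S100a14* (0.98) and *Tmem176a* (0.97). For the 6 B cell genes they were *Cd53* (0.93), a tetraspanin of leukocytes, *BC064078* (0.89), *Anxa7* (0.89), *Rubcnl* (0.89) and *Pxdc1* (0.89). Of these 10 genes 9 had their highest level in wt mouse 1 or 2 and *Ctss* in TKO mouse 2. The 11 points share the 2 libraries that stand apart, and r is given as a description.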

How the data were processed

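Thymocyte libraries of 11 mice (4 wt, 4 *Zmat3-/-*, 3 TKO) were analysed. The authors extracted RNA, made libraries with a kit that does not mark strand, quantified paired reads with Salmon (nf-core/rnaseq, GRCm38.p6, GENCODE vM25) and deposited estimated counts per gene, in whole numbers and not normalized. The submitters' processing notes also name bcl2fastq and DESeq2 1.40.0. Groups came from the labels. Names and positions came from GENCODE M21, which matched 54166 of 54418 genes.

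Each pair of genotypes was fitted alone in edgeR 4.0.16 under R 4.3.3 with limma 3.58.1, using TMM, a two-sided quasi-likelihood F-test and Benjamini-Hochberg adjustment over all tested genes. A gene was tested when its counts, brought to the size of the smallest library, reached 20 in a number of mice equal to the smaller group. Not tested, as in the paper, were *Xist*, rRNA, chromosome Y and those immunoglobulin genes that code for no protein, and the thresholds for a call are also the paper's. The paper also removed obsolete Entrez identifiers, which was not repeated, and used DESeq2 with sex and surrogate variables. The labels give no sex, so these entered as alternatives, with *Xist* level in place of sex (DESeq2 1.42.0, sva 3.50.0). Standard errors were derived from log2FC and F. A prior count of 2 was added for the log2 CPM behind deviations and likeness. The script was tested on simulated counts. The floor at 3 counts covers counting error only, and the confidence intervals come from the spread between mice in the edgeR fit.

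The members and lists were chosen with earlier results of these data known. Genes of other lists were named by a rule: called genes, or else up to 3 with the largest absolute log2FC among those with unadjusted p under 0.05 and groups that did not overlap, the 3 highest by mean CPM in the B cell and class II lists, and the 5 most similar to each set. *Ciita*, *Ighd*, *Ighg2b*, *Fscn1*, *Ccl22*, *Col1a2*, *Krt14*, *H2-Ob*, *Vpreb2*, *Igll1*, *Vpreb3*, *Elane*, *Mpo*, *Ly6g*, *Cldn3*, *Klf1*, *H2-Oa* and *H2-Ea-ps* were added after their values were seen. Alternatives were DESeq2, RLE, other filters, a joint fit of the genotypes, a replicate block, 1 surrogate variable, the *Xist* level and each mouse left out. Leaving out wt mice 1 and 2 or 3 and 4 was chosen after seeing the data. Some items that the rule names are not reported here.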

Additional observations from a re-analysis of the deposited data

Results flagged for a closer look

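In groups of 4 mice each of the 9 genes was examined for a mouse far from the other 3, 18 groups in all, and 1 was found. *H2-Aa* was at 190.9 CPM in *Zmat3-/-* mouse 1, against 155.0 to 159.7 CPM in the other 3 *Zmat3-/-* mice, a gap of 0.871 of the group's range. Chance flags about 1 in 20 groups.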

How the results depend on the processing

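In all alternatives run, 0 of the 9 genes were called in each of the 3 comparisons, also at adjusted p under 0.05 at any fold change in the fit of all mice. Signs turned in several fits, those of *Cd79a* and *Cd79b* against wt among them. When a replicate block was added, the log2FC of *Cd74*, *H2-Aa* and *H2-Eb1* in *Zmat3-/-* against wt was 0.083, 0.025 and 0.042, and that of *Pax5* in TKO against *Zmat3-/-* 0.015. Same-numbered mice did not all deviate together (r from 0.09 to 0.32, from 0.07 to 0.39 and from -0.004 to 0.17 in the 3 comparisons), so the numbers were not taken to pair the mice. The block left 8, 16 and 16 genes called, against 43, 32 and 16. With 1 surrogate variable *Cd74*, *H2-Aa* and *H2-Eb1* were at 0.19, 0.12 and 0.13 in *Zmat3-/-* against wt, at 0.17, 0.12 and 0.10 in TKO against wt and at 0.13, 0.13 and 0.11 in TKO against *Zmat3-/-*, where *H2-Ab1* was at 0.13, *Cd79a* at 0.058, *Ms4a1* at 0.030 and *Pax5* at 0.043. This fit gave adjusted p of 0.0325 for *Cd79a* (log2FC -0.44) and 0.0152 for *Ighm* (-0.28) in *Zmat3-/-* against wt, both under the fold threshold. It called 215, 176 and 18 of all genes. DESeq2 called 123, 103 and 19, and one fit of all genotypes 73, 68 and 14. With the *Xist* level *Cd74*, *H2-Aa* and *H2-Eb1* were at 0.076, 0.014 and 0.033 in *Zmat3-/-* and at 0.19, 0.13 and 0.12 in TKO against wt, *H2-Ab1* at 0.0035 in TKO against wt, and *Cd74*, *H2-Aa* and *H2-Ab1* at 0.0049, 0.0055 and 0.0033 in TKO against *Zmat3-/-*. Without wt mice 1 and 2, *Cd79a*, *Cd79b*, *Cd74*, *H2-Aa*, *H2-Ab1* and *H2-Eb1* were at 0.089, 0.23, 0.63, 0.56, 0.40 and 0.53 in *Zmat3-/-* and at 0.027, 0.13, 0.62, 0.55, 0.39 and 0.51 in TKO against wt, *Ighm* in TKO at 0.047, and *Col3a1* was called in *Zmat3-/-* (1.77). This left 441 and 244 of all genes called, and leaving out wt mice 3 and 4 left 733 and 672. With any one mouse left out the ranges that crossed 0 were, in *Zmat3-/-* against wt, -0.20 to 0.17 (*Cd74*), -0.27 to 0.11 (*H2-Aa*) and -0.23 to 0.14 (*H2-Eb1*); in TKO against wt, -0.0085 to 0.38 (*Ms4a1*), -0.34 to 0.24 (*Cd74*), -0.39 to 0.19 (*H2-Aa*), -0.51 to 0.083 (*H2-Ab1*) and -0.41 to 0.22 (*H2-Eb1*); and in TKO against *Zmat3-/-*, -0.29 to 0.14 (*Cd79a*), -0.18 to 0.0011 (*Cd79b*), -0.28 to 0.17 (*Ms4a1*), -0.16 to 0.14 (*Pax5*), -0.21 to 0.33 (*Ebf1*), -0.32 to 0.27 (*Cd74*), -0.31 to 0.28 (*H2-Aa*), -0.32 to 0.27 (*H2-Ab1*) and -0.36 to 0.27 (*H2-Eb1*). The cause of these turns was not tested. Depth limits *Ebf1* most.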
